A study of Mus musculus with 2 samples.

Results

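Reticulocyte-like globin-dominated cells were those cells of 1 liver library in which adult globin transcripts made up at least 25% of all molecules. These cells also held few transcripts of Slc4a1 and Car2 and a small share of the Kupffer cell genes Clec4f, Cd5l and C1qa. They were chosen by measured values: a barcode ending in 2, at most 20% mitochondrial transcripts, at least 200 genes, at least 25% of the unique molecular identifiers (UMIs, 1 per captured transcript) from Hba-a1, Hba-a2, Hbb-bs and Hbb-bt, fewer than 5 UMIs of Slc4a1 and Car2 together, and less than 0.8% of UMIs from Clec4f, Cd5l and C1qa. Of 18633 barcodes in both libraries and 6942 kept cells of library 2, 720 cells met these values, which is 10.4% of the kept cells of that library (exact Clopper-Pearson 95% interval 9.66 to 11.1).

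The study set liver macrophages of a Spta sph/sph mouse beside those of a Spta wt/wt littermate, in a study of how taking up red cells affects liver macrophages. Both mice were males of 8 to 10 weeks and received no treatment. Non-parenchymal liver cells were enriched with beads against F4/80, a macrophage surface protein, and droplet libraries were made from the 3' ends of transcripts. The labels do not say which barcode ending belongs to which mouse, so no genotype is attached to library 2 or library 1. With 1 mouse per genotype there was no test; intervals cover counting error alone.

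Red cell precursors lose their nucleus to become reticulocytes, which for a short time still hold ribosomes, mitochondria and messenger RNA, mostly globin, and clear them as they mature. A mouse liver normally makes few red cells in adult life, but its Kupffer cells, the macrophages of the sinusoids, take up damaged or aged red cells, and precursors can settle there in anemia. Alpha and beta globin chains join with heme into hemoglobin; Alas2 starts heme synthesis in erythroid cells and Bpgm makes 2,3-bisphosphoglycerate, which lowers the oxygen affinity of hemoglobin.

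GATA1 is a transcription factor that drives globin and heme genes in erythroid cells. The 250 bases before the start of 3 globin genes and of Alas2 are shown because the globin chains and Alas2 carry the results below. Sequences are from RefSeq (GRCm38.p6), 5′ to 3′, and capitals mark a GATA motif on either strand (AGATAA or AGATAG, and likewise TGATAA or TGATAG).
Hba-a1, chr11:32283422-32283671, plus strand: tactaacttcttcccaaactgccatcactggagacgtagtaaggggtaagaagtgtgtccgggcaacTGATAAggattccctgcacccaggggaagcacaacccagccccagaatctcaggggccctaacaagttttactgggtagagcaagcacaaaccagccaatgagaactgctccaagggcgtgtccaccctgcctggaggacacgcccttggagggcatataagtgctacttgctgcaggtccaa
Hbb-bs, chr7:103827929-103828178, minus strand: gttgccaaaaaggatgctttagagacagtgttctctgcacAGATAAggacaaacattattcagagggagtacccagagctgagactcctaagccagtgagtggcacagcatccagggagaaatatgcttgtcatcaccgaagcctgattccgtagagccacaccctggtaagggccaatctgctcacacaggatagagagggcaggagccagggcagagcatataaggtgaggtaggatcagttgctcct
Hbb-bt, chr7:103813924-103814173, minus strand: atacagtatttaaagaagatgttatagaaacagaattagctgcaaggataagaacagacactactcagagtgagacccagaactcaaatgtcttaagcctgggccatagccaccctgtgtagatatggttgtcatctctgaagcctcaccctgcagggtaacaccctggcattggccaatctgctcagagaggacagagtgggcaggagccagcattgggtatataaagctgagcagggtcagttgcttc
Alas2, chrX:150547167-150547416, plus strand: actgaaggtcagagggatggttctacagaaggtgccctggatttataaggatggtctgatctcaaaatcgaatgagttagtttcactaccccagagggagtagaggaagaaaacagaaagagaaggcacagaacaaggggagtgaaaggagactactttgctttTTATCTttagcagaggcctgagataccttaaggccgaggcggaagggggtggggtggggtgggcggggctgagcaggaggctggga
Hba-a1, Hbb-bs and Alas2 had 1 match each and Hbb-bt had 0. Of 32851 RefSeq promoters of this length, 26.5% held such a match, so a match is common and says nothing of binding.

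Library 2 held 9726 barcodes with 56947765 UMIs, and library 1 held 8907 barcodes with 33099802 UMIs. In library 2 the steps of the rule left 6943, 6942, 1444, 1194 and finally 720 cells. In library 1 the same values were met by 50 of 3488 kept cells (1.43%, 1.07 to 1.89), with a median of 665 UMIs. Of these 50 cells, 48 carried a barcode sequence that was also in library 2 with over 5 times as many UMIs, so only 2 cells were not shared with it. Of the 720 cells of library 2, 23 carried a barcode also found in library 1 and 0 of them were deeper there by over 5 times. The reticulocyte-like cells were therefore described in library 2 alone.

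The nearest neighbours outside the rule were 474 cells of library 2 that met every other value but held 5 or more UMIs of Slc4a1 (band 3, the anion exchanger of the red cell membrane) and Car2 (carbonic anhydrase 2). They are called Slc4a1/Car2-positive cells here and serve as the comparison. Among the 1194 globin-dominated cells, 390 held 0 UMIs of this pair, 170 held 1, 82 held 2, 47 held 3 and 31 held 4, against 20 with 5, 11 with 6 and 395 with 12 or more. The counts still fell past the dividing value, to 7 cells at 10 UMIs and 5 cells at 11 UMIs. Depth also set the class: 98.1% of globin-dominated cells under 1000 UMIs were on the reticulocyte-like side, against 23.0% of those with 8000 or more. In Slc4a1/Car2-positive cells, which the same pair defined, its median share was between 0.516% and 0.604% of UMIs in 5 ranges of depth, the shallowest of which held 2 cells. The cells nearest to the other limits had 25.1% (inside) and 24.4% (outside) globin, 0.795% (inside) and 0.8% (outside) Kupffer transcripts, 20% (inside) and 20.1% (outside) mitochondrial transcripts, and 202 (inside) and 180 (outside) genes. A further 529 cells met all values except the mitochondrial one, and 226 all except the Kupffer one.

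**Figure D1:**
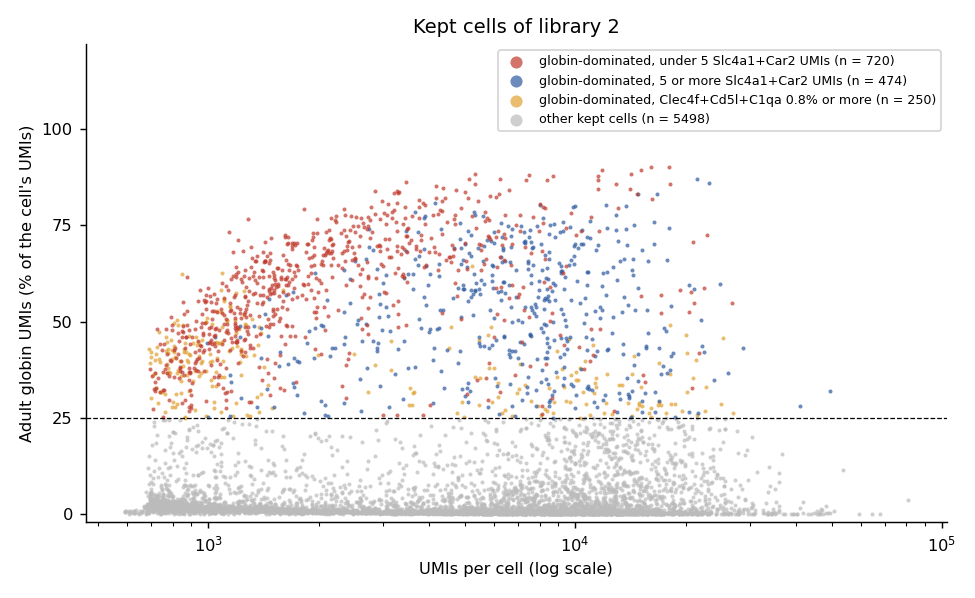
Share of adult globin UMIs (y axis, percent) against UMIs per cell (x axis, log scale) for the 6942 kept cells of library 2, 1 point a cell; the dashed line is the 25% limit. The 720 reticulocyte-like cells (red) form a band in which the globin share climbs with depth, and the 474 Slc4a1/Car2-positive cells (blue) lie mostly at higher depth.

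By the rule, globin filled these cells: its share ran between 25.1% and 90.2% with a median of 59.2%, against a median of 52.9% in Slc4a1/Car2-positive cells. The reticulocyte-like cells held few other molecules. They had a median of 1864.5 UMIs (695 to 26711) and 392.5 genes, against 7392.5 UMIs (991 to 49498) and 1212 genes in Slc4a1/Car2-positive cells. Depth alone lowers the number of genes seen, so each cell was also thinned to 800 UMIs, which left out 30 reticulocyte-like cells and 0 Slc4a1/Car2-positive cells. The median was then 207.5 genes in reticulocyte-like cells, 273 in Slc4a1/Car2-positive cells and 512 in 110 lymphocyte-marked cells. Of the thinned UMIs globin took a median of 60% in reticulocyte-like cells, 53.1% in Slc4a1/Car2-positive cells and 0.75% in lymphocyte-marked cells, a share that the rule chose and that leaves fewer UMIs for other genes. Mitochondrial transcripts were a median of 11.1% of UMIs in reticulocyte-like cells and 5.74% in Slc4a1/Car2-positive cells, although a limit on this share was part of the rule. Ribosomal protein transcripts summed to a median of 44 UMIs per reticulocyte-like cell, 204 per Slc4a1/Car2-positive cell and 63 per low-globin droplet of under 1200 UMIs.

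Transcripts of other liver cells were measured beside those of the red cell lineage. Every one of the 720 cells held Marco, a Kupffer cell receptor, and the 16 Kupffer cell markers summed to a median of 31 UMIs per reticulocyte-like cell (10 to 783). The same sum was 39 in Slc4a1/Car2-positive cells, 36 in lymphocyte-marked cells and 41 in 1190 low-globin droplets with under 1200 UMIs. The 14 hepatocyte markers, Alb among them, summed to a median of 6 UMIs in reticulocyte-like cells, 6 in Slc4a1/Car2-positive cells, 5 in lymphocyte-marked cells and 5 in the low-globin droplets. Kupffer cells held a median of 17 UMIs of the hepatocyte markers. The Kupffer sums include Clec4f, Cd5l and C1qa, which the rule limited in both globin-dominated groups; Marco alone, which the rule did not use, averaged 10.3 UMIs in reticulocyte-like cells, 12.4 in Slc4a1/Car2-positive cells, 8.44 in lymphocyte-marked cells and 9.40 in low-globin droplets. The lymphocyte-marked cells and the low-globin droplets served as backgrounds for red cell genes. Most of the low-globin droplets were Kupffer-like by the limit of the rule: the share of Clec4f, Cd5l and C1qa had a median of 1.15% and a lower quartile of 0.8% in them, so their Kupffer transcripts cannot be counted as foreign. Both groups were chosen as backgrounds after the data had been seen, and both were limited to cells under 25% globin. Lymphocyte-marked cells with progenitor transcripts were left out. Those left out held 3 or more UMIs of Klf1, Gata1, Hemgn, Car2 and Slc4a1, or of neutrophil and platelet markers, or at least 25% globin.

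Against both backgrounds, 25 of 3553 genes compared (0.704%) were at least 2-fold higher per reticulocyte-like cell over the whole counting interval, beside the globin genes that the rule used. These genes were picked on the same cells, so the list is a description; it held 14 genes when all 125 lymphocytes, progenitor transcripts included, served as background. Alas2 led with 4.94 UMIs per reticulocyte-like cell, against 10.3 in Slc4a1/Car2-positive cells, 0.145 in lymphocyte-marked cells and 0.134 in low-globin droplets. At least 1 Alas2 UMI was found in 84.3% of reticulocyte-like cells (median depth 1864.5 UMIs) and in 11.8% of lymphocyte-marked cells (median depth 2537 UMIs). After thinning to 800 UMIs these shares were 66.5% in reticulocyte-like cells and 4.55% in lymphocyte-marked cells. Both markers that the rule did not use, Alas2 and Bpgm, were therefore above both backgrounds per cell. The backgrounds were held low in globin by choice, so this difference is a description and no test.

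Bpgm had 1.24 UMIs per reticulocyte-like cell and 2.85 per Slc4a1/Car2-positive cell, against 0.0273 in lymphocyte-marked cells and 0.0378 in low-globin droplets. It was seen in 50.6% of reticulocyte-like cells and 2.73% of lymphocyte-marked cells. Heme and iron genes stood beside Alas2: the mitochondrial iron importer Slc25a37 (mitoferrin) had 2.91 UMIs per reticulocyte-like cell and 23.3 per Slc4a1/Car2-positive cell. Fech, which puts iron into heme, had 1.61 UMIs per reticulocyte-like cell and 6.95 per Slc4a1/Car2-positive cell. The mitochondrial carrier Slc25a39 had 0.935 UMIs per reticulocyte-like cell and 2.79 per Slc4a1/Car2-positive cell. All 3 were below the Slc4a1/Car2-positive cells and above the backgrounds.

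Genes of protein turnover formed a second group. Ube2l6, a ubiquitin-conjugating enzyme, had 1.98 UMIs per reticulocyte-like cell and 3.80 per Slc4a1/Car2-positive cell, against 0.0909 in lymphocyte-marked cells. Mkrn1, a ubiquitin ligase, had 2.11 UMIs per reticulocyte-like cell and 7.57 per Slc4a1/Car2-positive cell. March2, a membrane-bound ubiquitin ligase, had 0.874 UMIs per reticulocyte-like cell and 3.11 per Slc4a1/Car2-positive cell. Ube2o, which in mouse reticulocytes marks ribosomal proteins for removal, had 0.576 UMIs per reticulocyte-like cell and 2.15 per Slc4a1/Car2-positive cell. Of the membrane proteins, Epb41 (protein 4.1) had 1.203 UMIs per reticulocyte-like cell and 4.96 per Slc4a1/Car2-positive cell.

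Others of the 25 were Fam46c, a poly(A) polymerase, with 2.49 UMIs per reticulocyte-like cell; Prdx2, the red cell peroxiredoxin, with 1.90; Rsad2, known as an interferon-induced gene, with 1.59; and Fam213a, Apol11b, Fam220a, Gda, Isg20, Cdr2, Cox6b2, Smox, Hbq1a and Rec114 with between 0.0889 and 1.26. Of all 25, none had more UMIs per reticulocyte-like cell than per Slc4a1/Car2-positive cell. Hbq1a, a theta globin, came closest, with 0.0903 UMIs per reticulocyte-like cell and 0.0992 per Slc4a1/Car2-positive cell (65 and 47 UMIs in all). Its neighbour copy Hbq1b had 0.0681 per reticulocyte-like cell and 0.922 per Slc4a1/Car2-positive cell, but reads of these copies may be split between them.

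**Figure D2:**
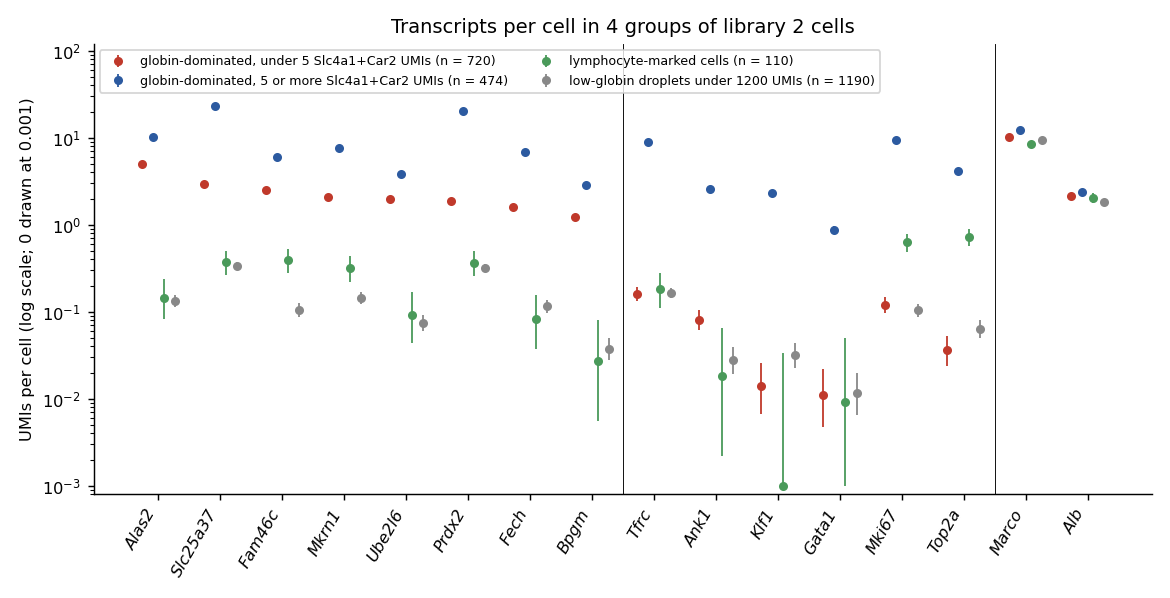
UMIs per cell (y axis, log scale, with exact Poisson 95% intervals) for 16 genes in reticulocyte-like cells (red), Slc4a1/Car2-positive cells (blue), lymphocyte-marked cells (green) and low-globin droplets (grey). The 8 genes on the left lie above both backgrounds in red and are higher still in blue. The 6 in the middle also have their highest values in blue. Marco and Alb on the right are of similar size in all groups, though Marco is highest in blue.

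A gene's ratio between the groups depended strongly on the scale. Counts were scaled to UMIs outside adult globin (CPM, a fixed multiple of a gene's share of those UMIs), since the rule fixed globin. Of 3553 genes with at least 50 CPM and 30 UMIs in either group, 930 (26.2%) were at least 2-fold higher and 1135 (31.9%) at least 2-fold lower in reticulocyte-like cells than in Slc4a1/Car2-positive cells. Scaled to all UMIs, globin included, 506 genes were higher and 1468 lower. Per cell, 7 genes (0.197%) were at least 2-fold higher and 2403 (67.6%) at least 2-fold lower. The median log2 ratio over all genes compared was -0.25 on the CPM scale and -1.93 per cell. The reticulocyte-like cells held 1212 UMIs outside globin on average, against 3885 in Slc4a1/Car2-positive cells. Markers of other liver cells took a larger share of that smaller sum: all 13 Kupffer cell, 14 hepatocyte, 7 endothelial, 4 monocyte and dendritic and 3 stellate markers compared were at least 2-fold higher on the CPM scale, with medians of 1.25, 1.57, 1.68, 1.24 and 1.44 (log2). Per cell the same medians were -0.43, -0.12, 0.00, -0.44 and -0.24. A marker could meet the minimum through reticulocyte-like cells alone, so that all compared were higher was partly set by this filter. With every marker of a list summed, endothelial markers had 785 CPM in reticulocyte-like cells and 227 in Slc4a1/Car2-positive cells. Such sums were 1548 and 599 CPM for monocyte and dendritic markers and 496 and 220 CPM for stellate markers. The monocyte and dendritic median was -0.65 on the CPM scale without the deepest 180 reticulocyte-like cells. The part of free RNA in the other CPM ratios was not tested gene by gene.

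Most of the heme pathway was low. Of 15 heme synthesis genes compared, 12 were at least 2-fold lower in reticulocyte-like cells and 0 higher (median log2 ratio -3.29, CPM scale). Among all genes compared, 31.9% were lower and 26.2% higher. Cpox, coproporphyrinogen oxidase, had 87.1 CPM in reticulocyte-like cells and 2036 CPM in Slc4a1/Car2-positive cells, a log2 ratio of -4.55 (95% interval -4.89 to -4.22). Its 0.106 UMIs per reticulocyte-like cell stood beside 0.106 in low-globin droplets. Urod and Alad, enzymes of earlier steps, had log2 ratios of -3.32 and -3.29. The 3 genes within 2-fold were the first enzyme Alas2 (0.63), Slc25a39 (0.10) and the last enzyme Fech (-0.43); per cell Alas2 was at -1.05.

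Iron genes differed among themselves. Tfrc, the transferrin receptor, had 133 CPM in reticulocyte-like cells and 2278 CPM in Slc4a1/Car2-positive cells (log2 ratio -4.10), and its 0.161 UMIs per reticulocyte-like cell stood beside 0.165 per low-globin droplet. Of 10 iron genes compared, 3 were lower and 1 higher. Over all genes compared 31.9% were lower and 26.2% higher, so these counts are no result about the list. The ferritin chains Fth1 and Ftl1 were within 2-fold (-0.13 and 0.46), but Kupffer cells are rich in ferritin and low-globin droplets held 11.3 Fth1 UMIs, against 13.4 per reticulocyte-like cell.

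The red cell membrane and its skeleton had the lowest median among the erythroid lists. Of 24 genes compared, 22 were at least 2-fold lower in reticulocyte-like cells and 0 higher, with a median log2 ratio of -3.90. The shares over all genes compared were 31.9% lower and 26.2% higher. Rhag, the Rh-associated glycoprotein, had 22 UMIs in reticulocyte-like cells, against 1398 UMIs in Slc4a1/Car2-positive cells, a log2 ratio of -4.91 (-5.59 to -4.31). Sptb (beta spectrin) had a log2 ratio of -3.87, Ank1 (ankyrin, which ties spectrin to band 3) -3.31 and Kel (the Kell antigen) -4.28. Of the 2 genes within 2-fold, Epb41 had -0.36 and Mpp1, a palmitoylated scaffold protein, -0.80.

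Transcription factors and receptors of red cell precursors, summed over the list of 24, were near the level of low-globin droplets. The sum, Maf included, averaged 1.99 UMIs per reticulocyte-like cell, 1.70 per low-globin droplet and 32.0 per Slc4a1/Car2-positive cell. Klf1, the activator of adult beta globin, had 10 UMIs in all reticulocyte-like cells and 1096 in Slc4a1/Car2-positive cells (log2 ratio -5.70, -6.76 to -4.81). Gata1 had 8 UMIs in reticulocyte-like cells and 417 in Slc4a1/Car2-positive cells, and Hemgn, a nuclear protein of erythroblasts, had 39 in reticulocyte-like cells and 3980 in Slc4a1/Car2-positive cells. Of 20 such genes compared, 15 were lower and 2 higher (median -2.67), against 31.9% lower and 26.2% higher over all genes compared. The 2 higher genes were Maf and Nfia, at 1.51 and 1.34, and Maf had 0.888 UMIs per reticulocyte-like cell against 0.803 in low-globin droplets.

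Cell division transcripts were low without exception among those compared: 33 of 33 genes were at least 2-fold lower, with a median log2 ratio of -3.98. The share so called over all genes compared was 31.9%. Mki67 had 0.121 UMIs per reticulocyte-like cell, 9.46 per Slc4a1/Car2-positive cell and 0.104 per low-globin droplet. Top2a (topoisomerase 2) and Cdc20 (a mitotic activator) had log2 ratios of -5.17 and -5.52. Ube2c, the ubiquitin-conjugating enzyme of mitotic exit, was less reduced, at -1.80, and had 0.661 UMIs per reticulocyte-like cell against 0.0723 per low-globin droplet. It was found in 32.6% of reticulocyte-like cells and 6.36% of lymphocyte-marked cells, and its mean in lymphocyte-marked cells was 0.518 UMIs. Of 19 chromatin and nuclear genes compared, 11 were lower and 2 higher (median -1.84), against 31.9% lower and 26.2% higher over all genes compared. Hist1h2ap, a replication histone, had 7 UMIs in reticulocyte-like cells and 1044 in Slc4a1/Car2-positive cells.

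The list of terminal maturation, ubiquitin and autophagy genes had 14 of 30 genes lower, 0 higher and 16 within 2-fold. Its median log2 ratio of -0.76 was below the -0.25 over all genes compared, of which 31.9% were lower and 26.2% higher. Ube2l6 was at 0.74 (0.64 to 0.84) on the CPM scale, though at -0.94 per cell, and Bnip3l, the receptor that clears mitochondria from reticulocytes, at -0.03. Bcl2l1, which encodes the survival factor Bcl-xL, was at -0.54, and Xpo7, an exporter that acts in nuclear condensation, at -3.62. Erythropoietin receptor transcripts (Epor) were at -3.43. Among 17 red cell antioxidant genes, 7 were lower and 2 higher, and their median of -0.15 was near the -0.25 over all genes compared. Prdx2 was at -1.73, Gpx1 at -1.13 and Cat at 0.33. The 2 higher were Hmox1 (1.25) and Prdx1 (1.06), and Hmox1, a heme oxygenase abundant in Kupffer cells, had 6.81 UMIs per reticulocyte-like cell against 6.25 in low-globin droplets.

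Glycolysis was the only red cell list with more higher than lower genes on the CPM scale, 6 against 1 of 13 (median 0.95). Its median per cell was -0.73. Among all genes compared, 26.2% were higher and 31.9% lower on the CPM scale. A gene could also meet the minimum through reticulocyte-like cells alone. Pkm, Gpi1, Tpi1 and Aldoa were among the 6, but none was higher per cell: Pkm had 0.457 UMIs per reticulocyte-like cell, 0.542 per Slc4a1/Car2-positive cell and 0.406 per low-globin droplet. Bpgm, at 0.48 (0.35 to 0.60) and per cell at -1.20, was the gene of that list that stood clear of both backgrounds. Hk1, the hexokinase of red cells, was at -3.57. Of the housekeeping lists, 15 of 80 ribosomal protein genes (median -0.78), 12 of 40 respiratory chain genes (-0.82), 7 of 33 proteasome genes (-0.55) and 6 of 21 translation factor genes (-0.45) were at least 2-fold lower, shares at or below the 31.9% over all genes compared, so they are no result about these lists. Of these lists only the proteasome had higher genes, 2 in number.

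**Figure D3:**
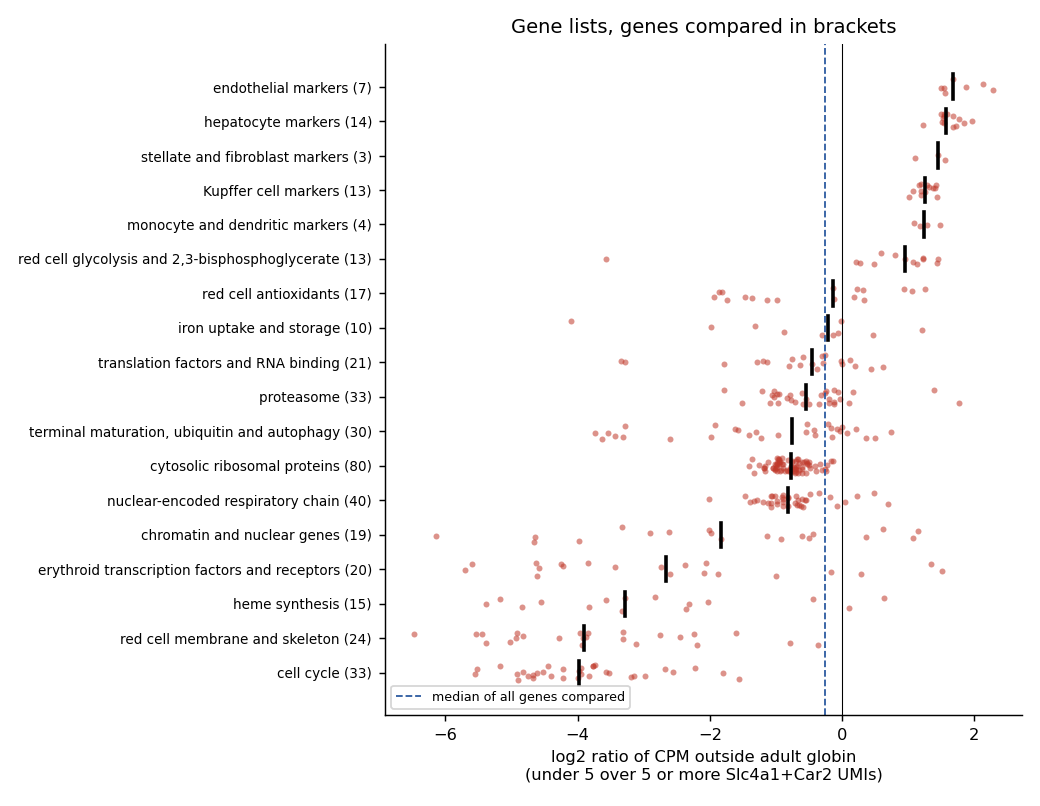
Log2 ratio of reticulocyte-like over Slc4a1/Car2-positive cells (x axis, CPM outside adult globin) for the genes of each list (points) with the list's median (bar); the dashed line is the median of all genes compared, -0.25. Cell cycle, membrane and heme genes mostly lie far to the left. The markers of other liver cells that met the minimum in either group all lie to the right of 1.

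The genes with the lowest ratios carried few UMIs in reticulocyte-like cells. Plek2, a pleckstrin family protein of erythroblasts, had 1 UMI against 274 in Slc4a1/Car2-positive cells (log2 ratio -7.02, -12.3 to -4.53). The other 14 lowest were Hmgb3, Dlgap5, Kif15, Mfsd2b, Xk, Fn3k, Art4, Hist1h2ae, Mybl2, Fignl1, Hist2h2aa1, Hist1h2ap, Hist2h2ac and Hist2h2bb, with 1 to 7 UMIs in reticulocyte-like cells and 141 to 1259 in Slc4a1/Car2-positive cells. Dlgap5 and Kif15 act on the mitotic spindle, Xk and Art4 encode blood group proteins, and 5 encode histones.

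The highest ratios did not belong to the red cell lineage. Ighm, the heavy chain of immunoglobulin M, had 1427 UMIs in reticulocyte-like cells, of which 1402 were in a single cell with 20770 UMIs, 3577 genes and 32.8% globin. The next cell had 8. Iglc2, Mzb1, Jchain and Slpi were the other 4 of the top 5, with log2 ratios of 7.89, 7.03, 6.30 and 6.96; without that cell Iglc2 had -0.90. Ly6a, Bmp2, Smad1, Notch1, Bnip3, Zfp710, Ttc36, Ptprb, Adrb1 and Arap2 followed, between 2.17 and 3.71. At least 3 UMIs of neutrophil, platelet, lymphocyte, endothelial, monocyte and dendritic, stellate or mast cell markers stood in 76 of 720 reticulocyte-like cells and in 73 of 474 Slc4a1/Car2-positive cells. Their part in the ratios was measured by leaving those cells out: 939 genes were then higher and 1371 lower.

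Among the reticulocyte-like cells, transcripts were followed along depth, of which globin was a large part. The 720 cells were ranked by UMIs and split into 4 bands of 180, with medians of 958, 1470, 2554.5 and 6313 UMIs. Globin, which the rule used, averaged 430, 835, 1746 and 5228 UMIs per cell from the shallowest to the deepest band. Alas2 averaged 1.18, 2.28, 4.16 and 12.1 UMIs, and Bpgm 0.344, 0.622, 1.08 and 2.91, so both grew with globin. Tfrc averaged 0.156, 0.106, 0.128 and 0.256, against 0.165 in low-globin droplets. Kupffer cell markers had a median of 27, 29, 32 and 46 UMIs and a mean of 27.3, 29.4, 34.9 and 109. The deepest band therefore held some cells with many Kupffer transcripts, and it also held all 23 shared barcodes; whether these droplets held more than 1 cell was not tested. Other foreign markers also averaged more UMIs in the deepest than in the shallowest band. The means were 14.0 against 4.84 for hepatocyte, 2.72 against 0.283 for endothelial and 6.73 against 0.217 for monocyte and dendritic markers.

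**Figure D4:**
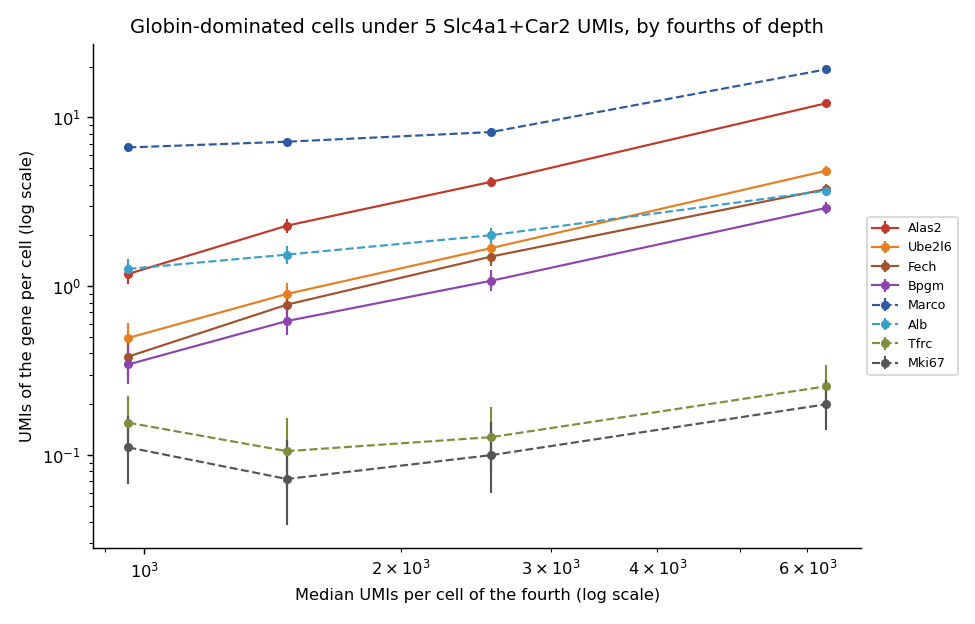
UMIs of 8 genes per reticulocyte-like cell (y axis, log scale, Poisson 95% intervals) against the median depth of 4 bands of 180 cells (x axis, log scale). Solid lines (Alas2, Ube2l6, Fech, Bpgm) rise steadily with depth. Dashed lines are Marco, Alb, Tfrc and Mki67, of which Tfrc and Mki67 stay between 0.0722 and 0.256 UMIs per cell.

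Relative to globin, Alas2 was alike in both globin-dominated groups: 2.40 UMIs per 1000 globin UMIs in reticulocyte-like cells and 2.43 in Slc4a1/Car2-positive cells. Kupffer cells, which held 274 globin UMIs each on average, had 2.74. Bpgm stood at 0.601 per 1000 globin UMIs in reticulocyte-like cells and 0.677 in Slc4a1/Car2-positive cells, and Tfrc at 0.0782 in reticulocyte-like cells and 2.10 in Slc4a1/Car2-positive cells. Lymphocyte-marked cells held 0.145 Alas2 and 0.0273 Bpgm UMIs beside 35.4 globin UMIs per cell. Low-globin droplets held 0.134 Alas2 and 0.0378 Bpgm UMIs beside 28.8 globin UMIs. Per globin UMI, neither gene was therefore lower in these backgrounds, on few UMIs, than in reticulocyte-like cells. Split by Slc4a1 and Car2 UMIs, which the rule used, Bpgm had 0.494 per 1000 globin UMIs at 0 UMIs of the pair, 0.681 at 1 to 4, 1.16 at 5 to 19 and 0.543 at 20 or more. The highest of these values lay just past the dividing line. In cells of 2000 to 8000 UMIs alone the same 4 values were 0.395, 0.780, 1.29 and 0.766. Slc25a37 climbed through these classes, from the lowest to the highest, with 1.28, 1.51, 2.44 and 6.38, while Ube2l6 was flat at 1.02, 0.917, 1.02 and 0.870.

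The balance of globin chains differed between the groups, a measure that the rule did not fix because it summed all 4 genes. The median ratio of alpha to beta globin UMIs per cell was 0.854 in reticulocyte-like cells (quartiles 0.733 and 1.04) and 0.718 in Slc4a1/Car2-positive cells (0.653 and 0.810); in the summed UMIs it was 0.895 in reticulocyte-like cells and 0.738 in Slc4a1/Car2-positive cells. Hbb-bt, the minor adult beta globin gene, made up 17.3% of beta UMIs in reticulocyte-like cells and 23.8% in Slc4a1/Car2-positive cells. In summed UMIs, early erythroid cells, 299 in number and under 25% globin, had an alpha to beta ratio of 0.646 and 25.2% Hbb-bt. Kupffer cells, with a median of 1.36% globin, had a ratio of 0.853 in summed UMIs (per-cell median 0.880) and 17.0% Hbb-bt.

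Both measures changed stepwise with Slc4a1 and Car2 content. The median alpha to beta ratio was 0.859 at 0 UMIs of the pair, 0.843 at 1 to 4, 0.805 at 5 to 19 and 0.700 at 20 or more, and the median Hbb-bt share was 17.1%, 18.6%, 21.4% and 25.3%. In cells of 2000 to 8000 UMIs the ratio was 0.867, 0.851, 0.807 and 0.710, so the order was the same within that range of depth. The cells of each class still overlapped widely. In the deepest band of reticulocyte-like cells, alpha globin made up 43.7% to 50.3% of globin UMIs between the quartiles, and 138 of 180 cells (76.7%) lay outside the 95% counting range around the pooled 47.4%. Hba-a2 made up 21.2% of alpha UMIs in reticulocyte-like cells and 20.02% in Slc4a1/Car2-positive cells. That split is uncertain, since 85.8% of 25-base windows in the last 200 bases of the Hba-a1 transcript occur in Hba-a2 as well; for Hbb-bs in Hbb-bt it is 11.4%.

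**Figure D5:**
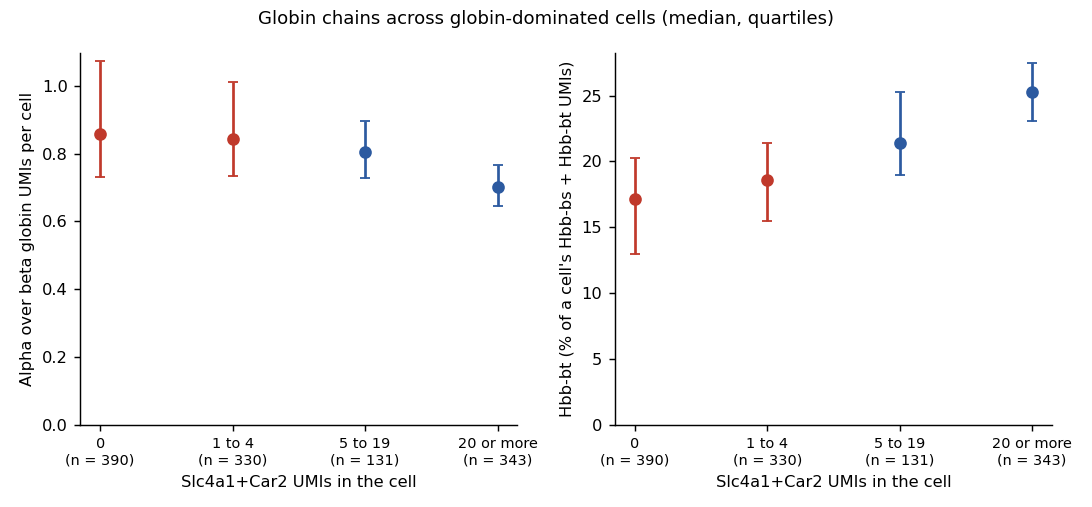
Ratio of alpha to beta globin UMIs per cell (left) and Hbb-bt as a percent of a cell's beta globin UMIs (right) by the number of Slc4a1 and Car2 UMIs (x axis); points are medians over cells and bars the quartiles. Reticulocyte-like cells (red) have the higher ratio and the lower Hbb-bt share, with medians from 0.859 to 0.700 and from 17.1% to 25.3% along the axis.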

How the data were processed

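Droplet 3' libraries of F4/80-enriched liver cells came from 2 mice, 1 per genotype. The authors deposited 1 table of UMI counts for both libraries, made with Cell Ranger 3.0.1, with R 3.6.1 and GRCm38.p5 also named, per the submitters' processing notes. The release of the gene annotation is not given in the sources used here. It held 26078 gene rows, of which 7588 had no UMI. Counts were used as deposited, with Python 3.11.15, numpy 2.4.6, scipy 1.17.1 and pandas 2.3.3.

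The cells and gene lists were chosen with earlier results of these data known. UMIs were summed per group of cells, scaled to CPM of the UMIs outside the 4 adult globin genes, and compared where a gene had at least 50 CPM and 30 UMIs in either group. A gene was counted as higher or lower from 2-fold. For its ratio, a gene with no UMI in a group was given 3 UMIs there. Named genes were the 15 highest and 15 lowest ratios and the genes of the lists. Intervals are 95% and exact (Poisson, Clopper-Pearson, conditional binomial for ratios) and cover counting error only; cells are not replicates and no test was made. For genes per cell, each cell was thinned to 800 UMIs. No doublet caller was run. Lymphocyte-marked cells had at least 5 lymphocyte UMIs. Interval calculations were tested on simulated data. Malat1, Neat1 and Ahsp were not analysed here, and some genes are not reported here.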

Additional observations from a re-analysis of the deposited data

How the results depend on the processing

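No paired analysis was possible because each genotype had 1 mouse and no test was made. With 1 library described, no replicate was left out.

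The number of reticulocyte-like cells was 346 at 60% globin or more, 295 at no more than 10% and 1162 at no more than 40% mitochondrial transcripts, 192 at 500 genes or more and 382 under 0.4% Kupffer transcripts. Their share of kept cells was 8.93% at 40% globin, 4.98% at 60% globin, 11.3% and 12.5% with the 2 mitochondrial limits, 3.30% at 500 genes, 9.25% and 11.3% under 3 and 10 Slc4a1 and Car2 UMIs, 5.50% and 13.6% under 0.4% and 1.6% Kupffer transcripts and 11.6% without shared barcodes.

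Genes higher and lower numbered 208 and 382 from 200 CPM and 5324 and 2298 with no minimum. They numbered 295 and 279 in cells of 1000 to 4000 UMIs and 352 and 461 after thinning to 800 UMIs. On CPM of all UMIs 506 were higher. A gene with no UMI in a group was given 3 UMIs for its ratio. With no minimum, genes unseen in reticulocyte-like cells and with few UMIs in Slc4a1/Car2-positive cells could thus count as higher. The 5324 is therefore no count of genes higher in reticulocyte-like cells. Chosen after seeing the data, UMIs per cell gave 7 higher and 2403 lower, and marker medians of -0.43 (Kupffer), -0.12 (hepatocyte), -0.44 (monocyte and dendritic) and -0.24 (stellate). The monocyte and dendritic median was -0.24 at 40% globin or more and -0.65 without the deepest 180 cells, a setting also added after seeing the data.

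Log2 ratios that changed sign were, in cells of 1000 to 4000 UMIs, Bmp2 and Ly6a at -0.60, Iglc2 at -2.92 and Mzb1 and Slpi at -1.34. Thinning gave Mzb1 -0.32 and Slpi -0.90, and leaving out cells with markers of other lineages gave Slpi -0.27. At 40% globin or more, Ighm had -0.92 and Mzb1 and Slpi -0.85. Without shared barcodes Iglc2 and Mzb1 had -0.86. Without the Ighm-rich cell Iglc2 had -0.90, and without the deepest 180 cells Ighm had -0.30 and Iglc2 -0.67. Here too a gene with no UMI in a group was given 3 UMIs. Values of these genes, above all those that different genes share, can therefore rest on few or no UMIs. They are no result about the genes. The cause was not tested. Counting only medians and ratios of 2-fold or more, 6 list medians and 16 ratios of named genes changed sign over all settings. Of the others, 190 medians and 369 ratios moved by no more than counting error, and the remaining medians and 110 ratios moved by more. Smaller values also changed sign on UMIs per cell: the glycolysis median was -0.73, Alas2 -1.05, Bpgm -1.20 and Ube2l6 -0.94.

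The alpha to beta ratio stayed higher in reticulocyte-like than in Slc4a1/Car2-positive cells in each setting run: 0.840 and 0.752 in cells of 1000 to 4000 UMIs, 0.846 and 0.712 without other lineages, 0.829 and 0.708 at no more than 10% mitochondrial transcripts, 0.851 and 0.724 without shared barcodes, and 0.845 and 0.722 thinned to 800 UMIs. Slc4a1/Car2-positive cells had 0.724 at 40% globin or more and 0.730 thinned to 500 UMIs, and reticulocyte-like cells 0.839 without their deepest 180. Genes per cell were 144 and 184 at 500 UMIs, and 392.5 and 1212 without thinning. Genes above both backgrounds numbered 14 with all lymphocytes, 97 with low-globin droplets alone and 59 when the ratio alone had to reach 2-fold.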

Other observations

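Proteasome transcripts held 2 genes at least 2-fold higher on the CPM scale, Psmb8 and Psmb10, both subunits of the immunoproteasome, with log2 ratios of 1.77 and 1.39. Per cell their log2 ratios were 0.08 and -0.29, and Psmb8 had 0.161 UMIs per reticulocyte-like cell against 0.105 per low-globin droplet, Psmb10 0.156 against 0.152. They were named after their values were seen. No hypothesis was tested.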
